A study of Homo sapiens with 2 samples.

Results

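The lysine tRNA genes were examined copy by copy in RNA recovered with hTrmt13 (TRMT13), a tRNA ribose methyltransferase, from MDA-MB-231, a long-established line of human breast carcinoma cells. Members were all listed features of the tRNA class whose name begins with tRNA-Lys, which gave 40 of 549 tRNA genes and of 741078 listed features. The names carry the anticodon, then a number for the isodecoder (a distinct mature sequence), then a number for the gene copy. There were 19 members with anticodon TTT in 15 isodecoders and 21 with anticodon CTT in 16 isodecoders. Features named tRX-Lys, which are tRNA lookalikes with no assigned anticodon, are no members.

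The assay was CLIP-seq, in which RNA crosslinked to a protein is isolated with an antibody and sequenced, and here the RNA was treated with AlkB-type enzymes that remove base modifications before reverse transcription. There was 1 group, unperturbed cells, with 2 replicates, and the series used it to look for the tRNAs bound by hTrmt13. Input or control antibody libraries were not analysed here, so counts describe what was recovered, not enrichment. Whether the replicates were grown as separate cultures is not stated in the labels, so the SD between them may be technical. Each library had a count table for read mate 1 (R1) and one for read mate 2 (R2). R1 tables held 27907799 and 20590398 counts in replicates 1 and 2, and R2 tables held 11246823 and 8793089. Values are R1 counts unless stated. The markers known to be high in this line ranged in CPM (counts scaled to a library of 1e+06) from CD44 (0.385 ± 0.0637) over AXL (0.578 ± 0.00670) and EGFR (5.60 ± 1.43) to VIM (24.4 ± 15.1; SD, n = 2 each). Those known to be low ranged from PGR (0.0971 ± 0.137) over ESR1 (0.557 ± 0.585) and CDH1 (1.96 ± 0.738) to ERBB2 (6.92 ± 4.01). The lists overlap, so this recovered RNA gave no check of the labelled line.

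Lysine is encoded by the codons AAA and AAG. The tRNA with anticodon TTT in the gene (UUU in the RNA) reads AAA and can also read AAG, and the one with CTT reads AAG. RNA polymerase III transcribes these genes from promoter elements inside the tRNA itself, the A box and the B box, and each mature tRNA is usually made from several gene copies spread over the genome. Copies of 1 isodecoder carry the same mature sequence by the naming convention, so a short read from the mature RNA can match all of them.

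The sequence of tRNA-Lys-CTT-3-1 is shown because it is the 1 member whose sequence could be taken from a transcript given for the features that overlap it, and it shows where the anticodon and the internal promoter lie in such a gene. The gene lies on hg19 chromosome 16, 3207406 to 3207478, minus strand, inside the exonic sequence of the long non-coding RNA RP11-473M20.16 (748 bases, GENCODE release 29), at bases 7 to 79 of that transcript. Capitals mark the anticodon at bases 34 to 36 and the B box, whose core GGTTCGA was found at bases 52 to 58, the 1 match on both strands.
tRNA-Lys-CTT-3-1: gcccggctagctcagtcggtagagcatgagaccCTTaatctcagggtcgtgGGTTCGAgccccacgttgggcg
The same letters were found, on either strand, in 82 of 35116 windows of 73 bases around RefSeq gene starts (GRCh38.p14), or 0.234%. A match is a description of the letters only. Of the 40 members, 35 had a listed length of 73 bases, 4 had 74 to 76 bases and tRNA-Lys-TTT-14-1 had 79 bases, so counts of members compare at nearly equal length.

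With all members counted, lysine tRNA ranked below arginine tRNA alone in R1 and first in R2, and TTT copies held most of it in both. The 40 members had 3986292 R1 counts in replicate 1, which was 24.3% of the counts of tRNA genes (95% Clopper-Pearson interval 24.32 to 24.36%), and 2935786 in replicate 2, which was 25.9% (25.87 to 25.92%). The mean was 25.1% ± 1.10 (SD, n = 2), against 33.1% ± 1.13 for tRNA-Arg. In R2 the share of tRNA-Lys was 41.2% ± 1.40, against 14.5% ± 0.331 for tRNA-Arg (SD, n = 2 each). Without the tRNA-Lys members that RefSeq lists as pseudogenes, the R1 share of tRNA-Lys was 13.7%. Pseudogenes of other isotypes stayed in for this value. With all tRNA genes counted, tRNA-Thr held 12.1% ± 0.234 in R1 (SD, n = 2). Its share without those members was not computed, so the R1 rank of tRNA-Lys in that setting is not given. The 95% intervals cover only the counting error of reads taken as independent. PCR reads without molecular identifiers are not independent molecules, so the intervals may be too narrow even for that. Within tRNA-Lys, TTT copies held 75.7% of the counts in replicate 1 (75.68 to 75.76%) and 73.3% in replicate 2 (73.28 to 73.38%), a mean of 74.5% ± 1.69 (SD, n = 2). The replicates differed by more than their counting intervals in both shares. The lead of TTT in R1 rested on 1 copy: without tRNA-Lys-TTT-14-1, TTT copies held 48.2% in replicate 1 and 44.96% in replicate 2, so CTT copies were then ahead in both. In R2, TTT copies stayed ahead without it, at 64.9% and 67.1%. Counted per copy, the order was also the other way round. The median CTT member had 28513 counts in replicate 1 and 21635 in replicate 2, against 7310 and 5540 for the median TTT member. For the other 509 tRNA genes the medians were 1659 and 1274.

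A single locus, tRNA-Lys-TTT-14-1, was the highest member. It lies on hg19 chromosome 14, 74055529 to 74055607, minus strand, and overlaps no other listed feature. It had 2118572 counts in replicate 1 and 1513155 in replicate 2, which was 53.1% (53.10 to 53.20%) and 51.5% (51.48 to 51.60%) of all tRNA-Lys counts. The mean was 52.3% ± 1.13 (SD, n = 2). Both libraries thus put it far above the rest, at 6.998 and 7.10 times the next member. RefSeq (GRCh38.p14) has a pseudogene under the matching symbol, TRK-TTT14-1. The match is by symbol alone, and that entry is 73 bases long against 79 for the listed feature. By symbol, 35 of the 40 members matched RefSeq, 27 of them classed as tRNA, 8 as pseudogene. The 8 pseudogene entries held 53.4% of tRNA-Lys counts in replicate 1 and 51.8% in replicate 2. The other 7 of them held 0.294% and 0.239%, so the share of this class came almost wholly from tRNA-Lys-TTT-14-1.

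The 12 members with the highest mean share held 93.8% of the counts, and the remaining 28 held 6.17%. After tRNA-Lys-TTT-14-1 came both minus-strand copies of isodecoder TTT-3. tRNA-Lys-TTT-3-2 (chromosome 1, 204476158 to 204476230, minus strand) had 302757 and 212878 counts in replicates 1 and 2, or 7.42% ± 0.243 of tRNA-Lys counts (SD, n = 2). tRNA-Lys-TTT-3-4 (chromosome 11, 59327808 to 59327880, minus strand) had 301883 and 213225, or 7.42% ± 0.219. These loci on different chromosomes differed by less than the spread between replicates.

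The highest CTT copy was tRNA-Lys-CTT-1-2 (chromosome 15, 79152904 to 79152976, plus strand), with 197085 and 163436 counts, or 5.26% ± 0.441 (SD, n = 2). tRNA-Lys-CTT-2-4 (chromosome 6, 26556774 to 26556846, plus strand) had 136271 and 109982, or 3.58% ± 0.232. tRNA-Lys-TTT-4-1 (chromosome 6, 27559593 to 27559665, minus strand) had 142225 and 102342, or 3.53% ± 0.0579. The places of the last pair change with the replicate, since TTT-4-1 was ahead in replicate 1 and CTT-2-4 in replicate 2. Next came tRNA-Lys-CTT-2-2 (chromosome 5, 180634755 to 180634827, plus strand) at 3.07% ± 0.193. tRNA-Lys-CTT-2-5 (chromosome 16, 3225692 to 3225764, plus strand) stood at 3.05% ± 0.176. tRNA-Lys-CTT-4-1 (chromosome 16, 3241501 to 3241573, plus strand) stood at 2.88% ± 0.236 (SD, n = 2 each). Among CTT-2-2, CTT-2-5 and CTT-4-1, the means of neighbours did not differ beyond the SD between replicates, but their order was the same in both libraries. The last of the 12 were tRNA-Lys-CTT-1-1 (chromosome 14, 58706613 to 58706685, minus strand) at 2.54% ± 0.0941, tRNA-Lys-TTT-1-1 (chromosome 16, 73512216 to 73512288, minus strand) at 1.65% ± 0.00833, and tRNA-Lys-CTT-2-1 (chromosome 1, 145395522 to 145395594, minus strand) at 1.10% ± 0.0808 (SD, n = 2 each).

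**Figure D1:**
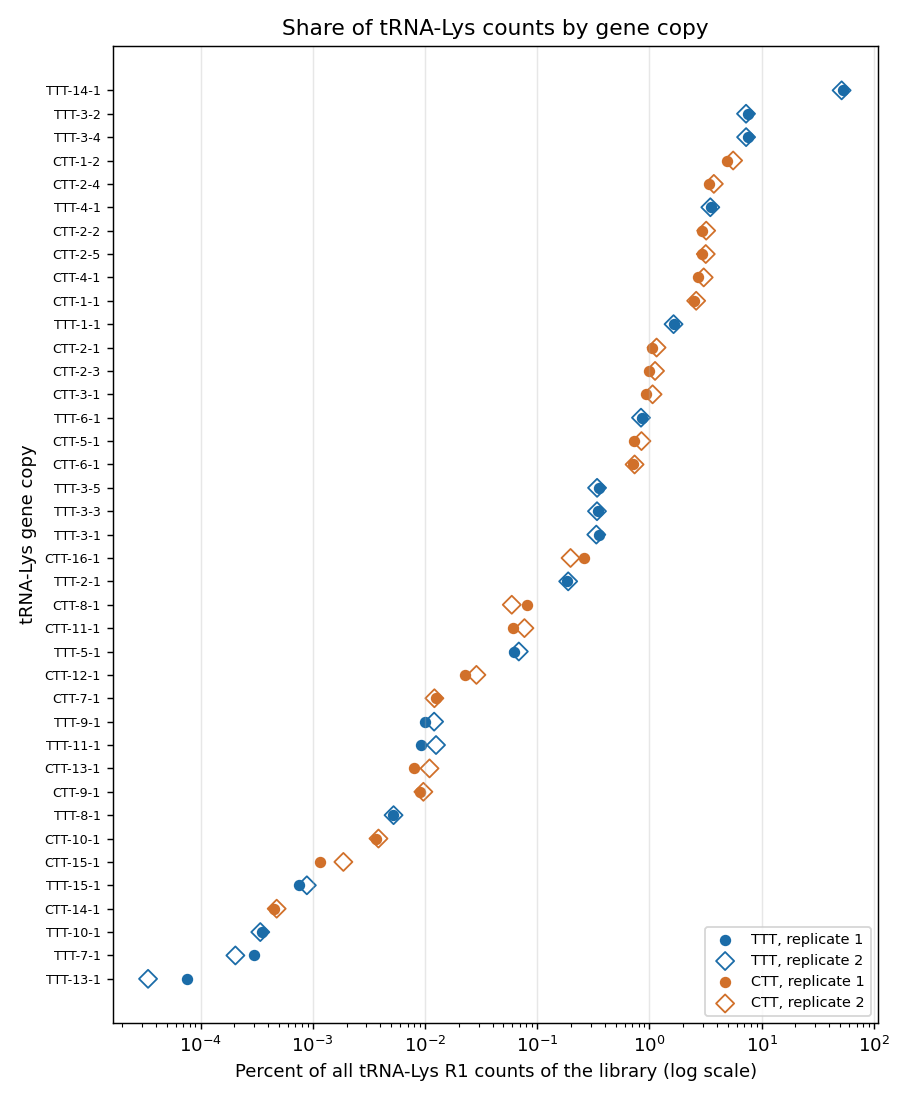
Percent of all tRNA-Lys R1 counts (x axis, log scale) for each gene copy with a count (y axis, highest mean at the top), with filled circles for replicate 1 and open diamonds for replicate 2, blue for anticodon TTT and orange for CTT. tRNA-Lys-TTT-14-1 stands apart at 53.1% and 51.5%, and 18 of the 40 members have a mean share under 0.1%.

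The low end of the list was long. There were 18 members with a mean share under 0.1%, and 33 members had at least 100 R1 counts in each library, the minimum used below for ratios. The 7 others were tRNA-Lys-CTT-15-1 (46 and 55 counts), tRNA-Lys-TTT-15-1 (30 and 26), tRNA-Lys-CTT-14-1 (18 and 14), tRNA-Lys-TTT-10-1 (14 and 10), tRNA-Lys-TTT-7-1 (12 and 6), tRNA-Lys-TTT-13-1 (3 and 1) and tRNA-Lys-TTT-12-1 (0 and 0). Of tRNA-Lys-TTT-12-1, R2 held 0 and 2 counts. Its R1 value of 0 of 3986292 tRNA-Lys counts in replicate 1 allows a share of up to 7.53e-05%, taken as 3 counts. That bound covers only the counting error of reads taken as independent.

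Summed over copies, the order of the single copies was not kept throughout, since CTT-2 stood above CTT-1, which holds the highest single CTT copy. TTT-14 led with its single copy. TTT-3 followed with 5 copies and 15.9% ± 0.489 of tRNA-Lys counts, then CTT-2 with 5 copies and 11.9% ± 0.770, CTT-1 with 2 copies and 7.80% ± 0.535, and TTT-4 with 1 copy and 3.53% ± 0.0579 (SD, n = 2 each). These 5 differed from their neighbours by more than the replicate spread. The other 26 isodecoders have 1 copy each.

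Counts were concentrated on few copies. The 10 highest members held 90% of tRNA-Lys counts or just over, against 7 of 31 genes for tRNA-Arg and 12 of 22 for tRNA-Thr, the isotypes next to lysine in total tRNA counts. The highest copy held 49.7% ± 1.63 of tRNA-Arg counts and 20.7% ± 1.40 of tRNA-Thr counts (SD, n = 2 each). Among the 22 isotypes with at least 1000 counts in each library, tRNA-Lys ranked 2 for the share of its highest copy, after tRNA-SeC, which has 3 genes. In replicate 1 the highest copy held 53.1% for tRNA-Lys against 48.6% for tRNA-Arg, and in replicate 2 it held 51.5% against 50.9%. The gap to tRNA-Arg thus had 1 direction in both libraries but was small in replicate 2. No test of this gap was made.

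**Figure D2:**
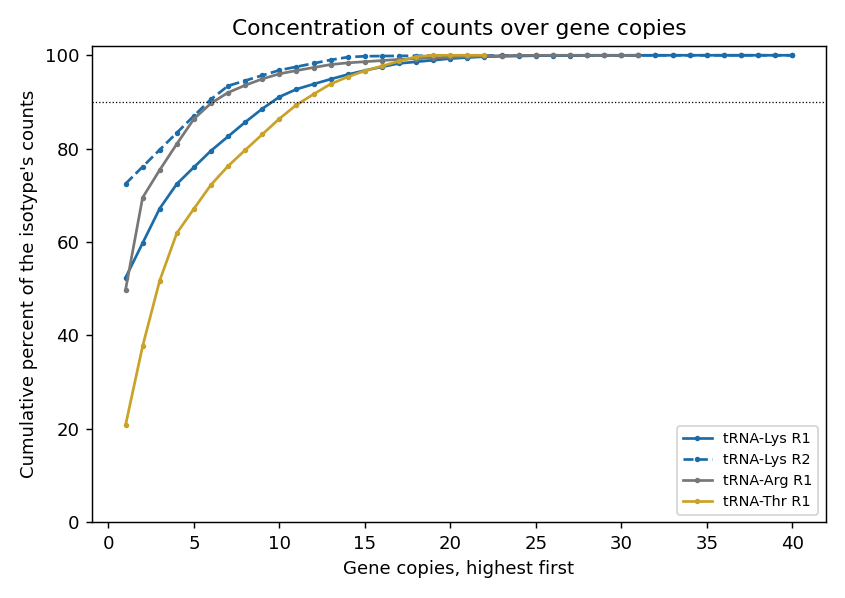
Cumulative percent of an isotype's counts (y axis) over its gene copies, highest first (x axis), as the mean of 2 replicates. The tRNA-Lys R1 curve (solid blue) crosses 90% (dotted line) at copy 10 and the R2 curve (dashed blue) at copy 6, against copy 7 for tRNA-Arg (grey) and copy 12 for tRNA-Thr (yellow).

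Gene copies that share a mature sequence did not share counts evenly, and the split followed the genome strand of the copy. For TTT-3, the plus-strand copies TTT-3-1 (chromosome 1, 204475655 to 204475727), TTT-3-3 (chromosome 6, 28918806 to 28918878) and TTT-3-5 (chromosome 17, 8022473 to 8022545) had 14074, 13956 and 14048 counts in replicate 1 and 9863, 10004 and 10020 in replicate 2. The minus-strand copies TTT-3-2 and TTT-3-4 had over 20 times as many, and the strands did not overlap in either library. The mean per copy was 21.6 times higher on the minus strand in replicate 1 and 21.4 times in replicate 2. Within a strand, the highest copy was at most 1.02 times the lowest. TTT-3-1 and TTT-3-2 lie 430 bases apart on chromosome 1, facing opposite ways.

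CTT-2 showed the same structure in the other direction. Its plus-strand copies CTT-2-2, CTT-2-4 and CTT-2-5 had 116748, 136271 and 116627 counts in replicate 1 and 94008, 109982 and 93190 in replicate 2. The minus-strand copies CTT-2-1 and CTT-2-3 (chromosome 5, 180648979 to 180649051) had 41568 and 39744 in replicate 1 and 33969 and 32917 in replicate 2. The plus strand was thus higher, by 3.03 times per copy in replicate 1 and 2.96 times in replicate 2. CTT-1 has 1 copy on each strand, and the plus-strand copy CTT-1-2 was 2.00 and 2.14 times the minus-strand copy CTT-1-1, which had 98636 and 76548 counts. The direction thus differed between isodecoders: minus was higher in TTT-3 and plus in CTT-2 and CTT-1, in both libraries.

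An unequal split between strands was common among tRNA genes. Of 37 isodecoders with copies of at least 100 R1 counts on both strands, 29 had strand means at least 1.5-fold apart in both libraries (78.4%), among them all 3 tRNA-Lys isodecoders with such copies. The 34 other isodecoders had a median ratio of the higher to the lower strand of 4.17 in replicate 1 and 4.38 in replicate 2. Copies on the same strand were closer: in 51 strand sets of other isodecoders the median ratio of the highest to the lowest copy was 1.07 and 1.09. The tRNA-Lys copies were therefore near the background in this respect. How reads with several matches were placed is not given in the sources used here, and its part in the split was not tested.

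**Figure D3:**
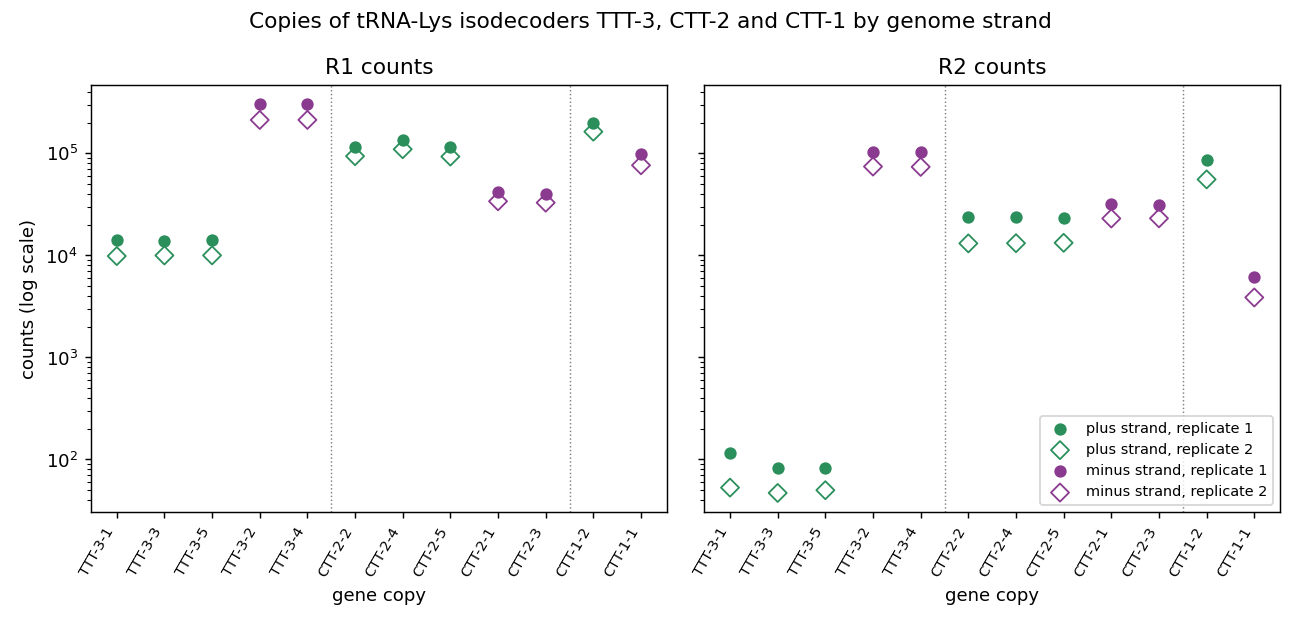
R1 counts (left) and R2 counts (right), on a log scale, for each copy of isodecoders TTT-3, CTT-2 and CTT-1 (x axis, separated by dotted lines), green for genes on the plus strand and purple for the minus strand, filled circles for replicate 1 and open diamonds for replicate 2. Copies on the same strand lie level, while the strands lie apart, by 21.6 times per copy for TTT-3 in replicate 1 of R1.

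The read mates gave different pictures of the lysine tRNAs. Over all 40 members the R2 counts were 72.0% of the R1 counts in replicate 1 and 69.1% in replicate 2, against 34.4% and 33.1% for the other tRNA genes. tRNA-Lys ranked 4 of 22 isotypes in this ratio in each library. Without tRNA-Lys-TTT-14-1 the values were 42.9% and 38.8%. Summed TTT copies stood at 85.8% and 85.9%, or 57.8% and 57.9% without tRNA-Lys-TTT-14-1, and summed CTT copies at 29.1% and 23.2%. Both TTT sums lay above the CTT sum by more than the spread between replicates. Per member the gap was smaller and the ranges overlapped, with medians of 36.3% and 34.8% over 14 TTT members and of 20.04% and 14.3% over 19 CTT members. The CTT ratio was lower in replicate 2 for 17 of the 19 CTT members with enough counts, and the TTT ratio for 11 of 14. Together this was 28 of 33 members, against a background of 73.1% of 379 tRNA genes. In R2, TTT copies held 90.6% ± 0.612 of tRNA-Lys counts, and tRNA-Lys-TTT-14-1 alone held 72.5% ± 0.517 (SD, n = 2 each).

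Single copies ranged much more widely. The lowest R2 count relative to R1 was that of TTT-3-3, with 82 and 47 R2 counts, or 0.588% and 0.470% of R1. The highest was that of tRNA-Lys-TTT-6-1 (chromosome 6, 27302769 to 27302841, minus strand), with 101485 and 72395 R2 counts, or 295.8% and 293.4%, from 34314 and 24675 R1 counts. Next was tRNA-Lys-TTT-1-1, at 157% and 154%. tRNA-Lys-TTT-14-1 had 2070520 and 1478392 R2 counts, or 97.7% in both libraries. The ratios of TTT-6-1, TTT-1-1 and TTT-14-1 were alike in the replicates, while that of TTT-3-3 differed more and rested on few R2 counts. Of the 33 members with enough counts, 10 had an R2 count of at least 50% of R1 in both libraries, against a background of 35.9% of 379 tRNA genes. In 13 of the 33 it was at most 20% in both, against a background of 25.6%.

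Several TTT copies of different isodecoders had nearly the same R2 count. TTT-1-1, TTT-3-2, TTT-3-4, TTT-4-1 and TTT-6-1, all on the minus strand, ranged from 101485 to 104480 R2 counts in replicate 1 and from 72395 to 74376 in replicate 2. The highest was 1.03 times the lowest in both. Their R1 counts ranged from 34314 to 302757 and from 24675 to 213225, which is 8.82-fold and 8.64-fold. Among CTT copies on the minus strand, CTT-2-1, CTT-2-3 and CTT-3-1 had 31276 to 31695 R2 counts in replicate 1 and 22911 to 23117 in replicate 2. On the plus strand, CTT-2-2, CTT-2-4 and CTT-2-5 had 23371 to 23726 and 13133 to 13301. These sets were put together because their R2 counts were alike, so they are a description only. Other copies of the same anticodon and strand lay far from them. In replicate 1, R2 held 6085 counts for CTT-1-1 and 962 for CTT-5-1, both on the minus strand. It held 86743 for the plus-strand copy CTT-1-2. Of the other minus-strand TTT copies, TTT-14-1 had 2070520 R2 counts in replicate 1 and TTT-15-1 had 26. For CTT-2 the higher strand also changed between mates: CTT-2-3 was 1.32 and 1.76 times CTT-2-2 in R2, whereas CTT-2-2 was 2.94 and 2.86 times CTT-2-3 in R1.

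Several copies were rich in R1 while their R2 counts were a small part of the R1 counts. The lowest ratios were those of the TTT-3 plus-strand copies, at most 0.817% in either library. tRNA-Lys-CTT-5-1 (chromosome 16, 3230555 to 3230627, minus strand) had 29312 and 24906 R1 counts and 962 and 763 R2 counts. tRNA-Lys-CTT-6-1 (chromosome 18, 43669271 to 43669343, minus strand) had 28513 and 21635 against 1079 and 739. tRNA-Lys-TTT-2-1 (chromosome 11, 122430655 to 122430727, plus strand) had 7310 and 5540 against 178 and 117. tRNA-Lys-CTT-1-1 stood at 6.17% and 5.06%, while CTT-1-2, of the same isodecoder, stood at 44.0% and 34.1%. The difference between the CTT-1 copies was thus larger in R2, where CTT-1-2 was 14.3 and 14.4 times CTT-1-1. By strand, the 17 plus-strand members with enough counts had a median of 20.04% and 14.3%, and the 16 minus-strand members had 34.5% and 34.8%, with ranges that overlap.

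**Figure D4:**
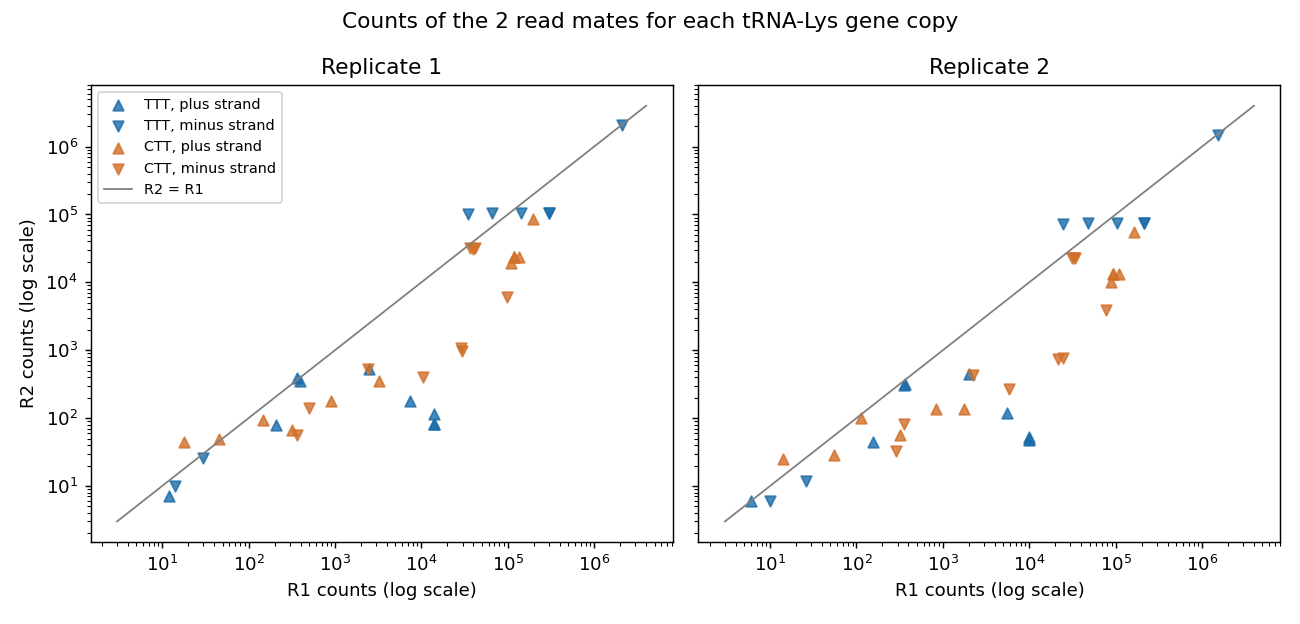
R2 counts (y axis) against R1 counts (x axis), both on log scales, for each tRNA-Lys gene copy with counts in both mates, by replicate (panels), anticodon (blue TTT, orange CTT) and genome strand (upward triangles plus, downward triangles minus), with a grey line where both are equal. tRNA-Lys-TTT-14-1 lies near the line at the top right, and the TTT-3 plus-strand copies lie lowest under the line. The level row of blue triangles at 101485 to 104480 R2 counts in replicate 1 holds TTT-1-1, TTT-3-2, TTT-3-4, TTT-4-1 and TTT-6-1. These are 5 of the 10 minus-strand TTT copies.

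Replicates kept the members in nearly the same proportions. Scaled to library totals, the median log2 ratio of replicate 2 over replicate 1 was 0.07 over the 33 members, with a range from -0.45 to 0.45, and -0.03 over 346 other tRNA genes. This compares 1 library with 1 other and has no test. As a share of all tRNA gene counts, CTT members had a median ratio of 1.17 (17 of 19 above 1) and TTT members one of 1.04 (14 of 14 above 1). The background above 1 was 62.0% of 379 tRNA genes. As a log2 ratio on this scale the medians were 0.06 for TTT members, 0.22 for CTT members and 0.06 for the other tRNA genes. The lowest was tRNA-Lys-CTT-8-1 (chromosome 16, 3214939 to 3215011, plus strand) at 0.779, from 3230 and 1741 counts, and the highest was tRNA-Lys-TTT-11-1 (chromosome 12, 27843306 to 27843378, plus strand) at 1.46, from 364 and 368. In 0 of the 33 members did the share rise 1.5-fold or more, against a background of 5.01%, and in 0 did it fall so far, against 2.37%. With the scaling factors of edgeR (TMM), the median for tRNA-Lys was -1.02, and that of the other tRNA genes was -1.12. TMM shifts all genes by the same amount, so the sign between libraries is set by the scaling, and the order of the sets is not changed by it.

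Positions and overlaps were read from the listed spans. The members lie on 12 chromosomes. Chromosome 16 holds 6 CTT copies within 38820 bases (3207406 to 3246225), with 7.78% ± 0.575 of tRNA-Lys counts (SD, n = 2). Within this cluster, CTT-4-1 had 108019 and 89334 counts and CTT-14-1, on the same strand, had 18 and 14. The TTT-9-1 and TTT-4-1 genes lie 15674 bases apart on chromosome 6 and had 398 and 142225 counts in replicate 1, and TTT-5-1 and TTT-3-4 lie 3833 bases apart on chromosome 11 with 2496 and 301883. Some other neighbours were closer: CTT-2-2 and CTT-2-3, 14151 bases apart on chromosome 5, had 116748 and 39744 counts in replicate 1. In the chromosome 16 cluster, CTT-3-1, CTT-5-1, CTT-2-5 and CTT-4-1 had 29312 to 116627 in replicate 1. CTT-8-1, which lies between CTT-3-1 and CTT-2-5, had only 3230.

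Of the 40 members, 13 overlap another listed gene, and these 13 held 13.7% and 14.9% of tRNA-Lys counts in replicates 1 and 2. None of the overlapping features was a piRNA or a microRNA (0 of each). Exons and introns of the enclosing genes were not assigned here, apart from CTT-3-1 above. Enclosing genes took up the counts of the tRNA. MORF4L1, a chromatin regulator gene, had 197155 and 163584 counts, of which 70 and 148 were left after those of tRNA-Lys-CTT-1-2. C14orf37 had 98899 and 76951, with 263 and 403 left after tRNA-Lys-CTT-1-1. ATP5A1, which encodes a subunit of mitochondrial ATP synthase, had 28782 and 22093, with 269 and 458 left after tRNA-Lys-CTT-6-1. The counts of these genes were thus nearly all tRNA-Lys counts. AJ003147.9, an antisense RNA gene that spans both tRNA-Lys-CTT-4-1 and CTT-14-1, had 114520 and 95315 counts, with more left after CTT-4-1, at 6501 and 5981.

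Features on the other strand took them up too. ZFHX3, a transcription factor gene on the strand of tRNA-Lys-TTT-1-1, had 66044 and 48521 counts, with 222 and 391 left. RP11-140I24.1, a long non-coding RNA on the other strand, had 65822 and 48136, with 0 and 6 left after the 65822 and 48130 counts of tRNA-Lys-TTT-1-1. AXL, a receptor tyrosine kinase gene and one of the markers of the line, overlaps tRNA-Lys-TTT-10-1 on the other strand. Its 16 and 12 counts left 2 and 2 after the 14 and 10 of that tRNA. RCN3 overlaps tRNA-Lys-TTT-12-1, which had no R1 count, and had 12 and 15.

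MT-TK, the lysine tRNA of the mitochondrial genome, was recovered at a much lower level than the nuclear lysine tRNAs together. It had 6009 and 3386 R1 counts, or 190 ± 35.97 CPM (SD, n = 2), and it made up 0.151% and 0.115% of nuclear and mitochondrial tRNA-Lys counts. It ranked 15 of 22 mitochondrial tRNAs. Its R2 counts were 56.7% and 54.4% of R1.

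Genes listed for the charging, modification, processing or transport of tRNA had low counts next to the tRNA genes. Whether each product acts on lysine tRNA was not tested. Of 45 names listed, 42 matched a protein-coding feature. The other 3, UBA4, DNMT2 and RNASEZ, matched none by name, which does not show that a gene was absent. Mean counts reached 10 in all 42. How many of all protein-coding genes reach that level was not computed, so reaching it does not set the list apart. The median of the 42 was 4.08 CPM, against 1.4996 CPM over 20285 nuclear protein-coding genes, and per kilobase of gene span 0.177 against 0.0447 CPM. Of the 42, 36 lay above the median of all these genes. KARS, the lysyl-tRNA synthetase, stood at 7.08 ± 4.34 CPM, and TRMT13 itself at 2.43 ± 1.16 CPM. ELAC2, which trims the 3′ end of tRNA precursors, stood at 8.67 ± 4.91 CPM, and XPOT, the exporter of mature tRNA from the nucleus, at 10.1 ± 5.75 CPM. Replicate 2 was the higher library in each of these and in every other gene found. The share of all protein-coding genes with this direction was not computed, so it is no trait of the list. CDKAL1, which modifies the base beside the anticodon of lysine TTT tRNA, stood at 19.1 ± 6.97 CPM over a span of 697948 bases. EEF1A1, the elongation factor that brings charged tRNA to the ribosome, was the highest at 71.2 ± 49.1 CPM, and IKBKAP, the scaffold of the Elongator complex that modifies the wobble uridine, stood at 11.3 ± 5.44 CPM (SD, n = 2 each). Each had fewer counts, over a longer span, than any of the 12 leading tRNA copies.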

How the data were processed

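CLIP-seq of hTrmt13 was measured in 2 replicates of 1 group of MDA-MB-231 cells. The authors deposited raw read counts per listed feature in 4 tables, separately by library and mate. Bowtie2 2.3.5.1, bedtools 2.24.0 and hg19 (GRCh37) are named in the submitters' processing notes. Alignment options, strandedness and how reads with several matches were treated: not given in the sources used here. Repeated lines (13) were dropped, which left 741078 features. Starts of tRNA features are 0-based in the tables and were raised by 1.

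Shares had exact Clopper-Pearson 95% intervals, which take reads as independent and cover counting error only. The mean and SD were taken over replicates. R1 tables were the main values, and R2, their sum and the other settings were alternatives. Ratios used genes with at least 100 R1 counts in each library. With 1 group, no test between conditions was made. Counts of ratios by direction alone, and isotype shares in R2, were added after the data were seen. Members were described by a rule: the 12 with the highest mean R1 share, all copies of isodecoders with several copies, the extremes of the mate ratio and the replicate ratio, members at 0 by name, and features overlapping the 12 highest. Outside this rule, CTT-3-1, CTT-5-1, CTT-6-1, CTT-14-1, TTT-2-1, TTT-5-1, TTT-9-1, the remaining members under 100 counts and the features ATP5A1, AXL and RCN3 were described after their values were seen. The members and lists were chosen with earlier results of these data known. Scaling factors came from edgeR 4.0.16 and DESeq2 1.42.0 in R 4.3.3, and the rest from Python 3.11.15 with pandas 2.3.3, scipy 1.17.1 and matplotlib 3.10.9. The ratio calculation was tested on simulated data.

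RefSeq classes were matched by symbol. The tRNA-Lys-CTT-3-1 sequence was cut from the GENCODE release 29 transcript of the lncRNA around it, by its distance from the end of that feature in the deposited table. The B box letters searched were chosen after that sequence was read.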

Additional observations from a re-analysis of the deposited data

Results flagged for a closer look

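The lookalike features named tRX-Lys, which are outside the members, held counts. The 6 of them together had 357216 R1 counts in replicate 1 and 256268 in replicate 2, or 8.22% and 8.03% of the R1 counts of tRNA-Lys and tRX-Lys together, far above the 3 counts that a count of 0 allows. In R2 they had 2104 and 1348. Most R1 counts of the 6 lookalikes were in tRX-Lys-NNN-3-1 (hg19 chromosome 15, 96327874 to 96327946, plus strand), which had 324569 and 228980. Its R2 counts were 398 and 260, or 0.123% and 0.114% of R1. That is lower than in any of the 33 tRNA-Lys genes with at least 100 R1 counts in each library. tRX-Lys-NNN-4-1 had 29757 and 25536 R1 counts.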

How the results depend on the processing

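No paired analysis was possible because all samples form 1 group. Leaving out a replicate gave 24.3 to 25.9% for the tRNA-Lys share of tRNA gene counts, 73.3 to 75.7% for the TTT share, 51.5 to 53.1% for tRNA-Lys-TTT-14-1 and 69.1 to 72.0% for R2 relative to R1. A mean of 2 always moves by less than 1 SD when 1 is left out. For the tRNA-Lys share (25.1%), R2 gave 41.2%, the sum of mates 29.96%, tRX rows included 26.7% and genes overlapping another feature left out 36.4%. With all library counts as denominator it was 14.3%, and with each isotype's leading gene left out 20.02%. With RefSeq pseudogenes left out it was 13.7%, where only those of tRNA-Lys were removed and those of other isotypes stayed in. For the TTT share (74.5%), the values were 90.6% in R2, 81.2% for the sum, 68.5% with tRX rows, 85.03% without overlapping genes, 46.6% without the highest gene and 46.8% without RefSeq pseudogenes. For tRNA-Lys-TTT-14-1 (52.3%), they were 72.5%, 60.7%, 48.1% and 61.1% under the first 4 of these, and 50.4% with counts divided by length. The members holding 90% (10) fell to 6 in R2 and to 6 without overlapping genes, and rose to 11 with tRX rows and to 13 without the highest gene or without RefSeq pseudogenes. R2 relative to R1 (70.6%) was 40.8% without the highest gene, 64.9% with tRX rows, 75.4% without overlapping genes and 41.02% without RefSeq pseudogenes. The log2 ratio between replicates (0.07) was -1.02 with TMM, -1.02 with DESeq2 size factors and -0.13 in R2. Counts of members whose share moved 1.5-fold (0 and 0) became 1 higher at a minimum of 10 counts, and 1 higher and 1 lower in R2. With R2, 35 of 40 member shares shifted past 1 SD (10 rose, 25 fell). The setting without RefSeq pseudogenes was added after seeing the data. For settings that remove genes the lost counts account for the shift by construction, and otherwise the cause was not tested.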
